A study of Mus musculus with 14 samples.

Results

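Of the 33939 genes in the deposited table, 10 genes of interleukin receptor signalling are described here. They were taken from a list of symbols and comprise the receptor chains Il4ra, Il6ra, Il10ra and Il10rb, the kinase Jak2, the transcription factors Stat3 and Stat6, and the suppressors Socs1, Socs3 and Cish. All 10 symbols matched a measured gene, and all 10 passed the filter on low values in every comparison. The study sequenced RNA from CD11b+ microglia and other myeloid cells of mouse brain after a controlled cortical impact, a model of traumatic brain injury (TBI). It asked how deleting Nhe1 in microglia affects recovery. Control (Ctrl) mice carried Cx3cr1-CreER+/- and conditional knockout (cKO) mice carried Cx3cr1-CreER+/- together with Nhe1flox/flox. All mice were C57BL/6, were 8 to 12 weeks old, had been given tamoxifen and were taken 3 days after TBI, so the controls share the Cre allele and the drug with the knockouts. Cre was driven by the Cx3cr1 promoter, which is active in microglia and in some blood-derived myeloid cells, while the CD11b selection takes up both. The study left a waiting period between tamoxifen and injury so that peripheral Cx3cr1+ monocytes could be replaced. From each genotype the injured ipsilateral (IL) and the non-lesion contralateral (CL) hemispheres were sorted separately, giving 4 libraries a hemisphere in Ctrl and 3 a hemisphere in cKO. The 14 libraries came from 8 mice, of which 6 (4 Ctrl and 2 cKO) gave both hemispheres. No uninjured mouse was among them, so CL is the uninjured side of an injured brain.

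Interleukins act by bringing receptor chains together on the cell surface. JAK kinases bound to those chains phosphorylate the receptor and then STAT proteins, which move to the nucleus and switch on target genes. IL-4 signals mainly through STAT6, and IL-6 and IL-10 mainly through STAT3. The SOCS proteins and CISH are themselves STAT targets and close the loop by blocking the receptors or the kinases. In microglia and macrophages, IL-4 and IL-10 are known for damping inflammation, and IL-6 for driving acute responses.

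Values are read counts scaled to a library sum of 1000000 (CPM), and depth inferred from the value of a single read was 12.2 to 41.6 M reads a library (M, 1000000), lowest in the IL library of Ctrl mouse 3546. The summed CPM of 7 homeostatic microglial markers was 23718 to 31756 over the CL libraries and 13721 to 15007 over the IL libraries, and 6 of the 7 were called lower in IL in each genotype, against 6.58% of all genes called in either direction in Ctrl and 22.4% in cKO. The sum of 6 markers of infiltrating monocytes was 91.8 to 340 in CL and 262 to 553 in IL, with 3 of 6 called higher in each genotype. The sum of 8 neutrophil markers went from 537 to 7524 in Ctrl CL and from 148 to 949 in Ctrl IL. In cKO it went from 571 to 1591 in CL and from 220 to 350 in IL. Of these 8 markers, 0 were called in Ctrl and 6 were called lower in cKO. In Ctrl 7 had an unadjusted p under 0.05, against 3460 of 16376 genes. By limma with the mouse as a block 7 were called lower in Ctrl, against 20.5% of all genes called in either direction. A list of 9 genes known to respond to tissue dissociation summed to 23989 to 35413 in CL and 16549 to 20403 in IL, with 1 called higher in Ctrl and 1 higher and 4 lower in cKO. No listed marker of these 4 lists was at 0 in all libraries of a group, and the part of these shifts in the results on hemisphere was not tested. In such bulk samples, fewer cells of a type and less RNA per cell cannot be told apart.

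Per kilobase of exon the 10 genes spanned a wide range of abundance. The length was that of all annotated exons of a gene merged, not of an expressed transcript, and the order depends on it. Stat3 and Stat6, for example, had means of 196 and 189 CPM in Ctrl CL over lengths of 9527 and 4402 bases. In Ctrl CL, Socs3 stood highest at 431 ± 91.4 CPM per kb, followed by Il10ra at 269 ± 16.0. Il10rb (69.0 ± 8.17), Il4ra (45.0 ± 13.4) and Stat6 (43.0 ± 11.6) followed, and the libraries of each overlapped those of the next. Stat3 (20.6 ± 6.01), Il6ra (11.7 ± 6.54) and Jak2 (9.86 ± 0.900) formed another overlapping run. Socs1 (4.31 ± 1.11) and Cish (0.384 ± 0.0992) had the lowest means, so the 3 suppressors held both ends of the scale. The Il6ra library of mouse 3541 (4.86 CPM per kb) lay within the range of Socs1, whereas Cish overlapped no other gene.

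**Figure D1:**
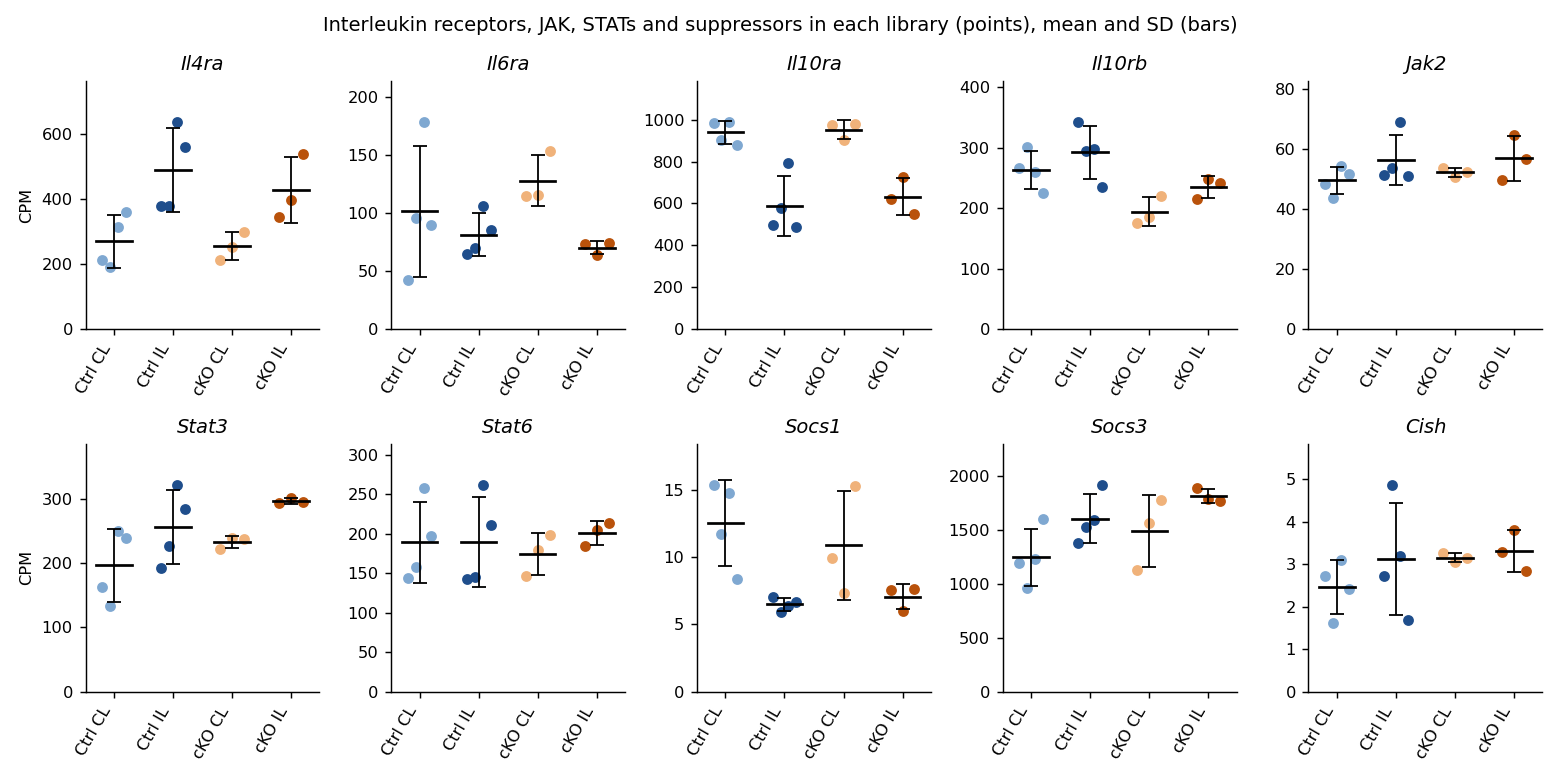
CPM of the 10 genes (vertical axis, linear from 0) in the 4 groups; each point is a library and the bars give the group mean and SD (n = 4 for Ctrl, n = 3 for cKO). Il4ra sits higher in the IL groups (428 and 490 CPM) than in the CL groups (256 and 270 CPM), and Il10ra sits lower (589 and 632 against 939 and 953 CPM).

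The comparison of hemispheres asks how these genes differ in cells from the injured side. A gene was called where limma's Benjamini-Hochberg adjusted p was at most 0.05 and the fold change at least 1.2. In Ctrl, Il4ra alone of the 10 genes was called, against 6.58% of all 16376 genes tested. The hemispheres of a mouse are paired, and with the mouse as a block 5 of 10 were called, against 20.5% of all genes: Il4ra, Stat3 and Socs3 higher and Il10ra and Socs1 lower in IL. In cKO, 3 of 10 were called, Il4ra and Stat3 higher and Il6ra lower, against 22.4% of 16758 genes. The block fit in cKO drops the 2 mice that gave a single hemisphere, and with the remaining 2 mice it called 2 of 10, Il4ra and Il6ra, against 13.5% of all genes. The groups did not overlap for 3 of 10 genes in Ctrl (17.7% of all genes) and for 4 of 10 in cKO (42.4% of all genes). The median log2 fold change of the 10 genes was 0.24 in Ctrl and 0.25 in cKO, and that of all genes -0.04 and 0.02.

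**Figure D2:**
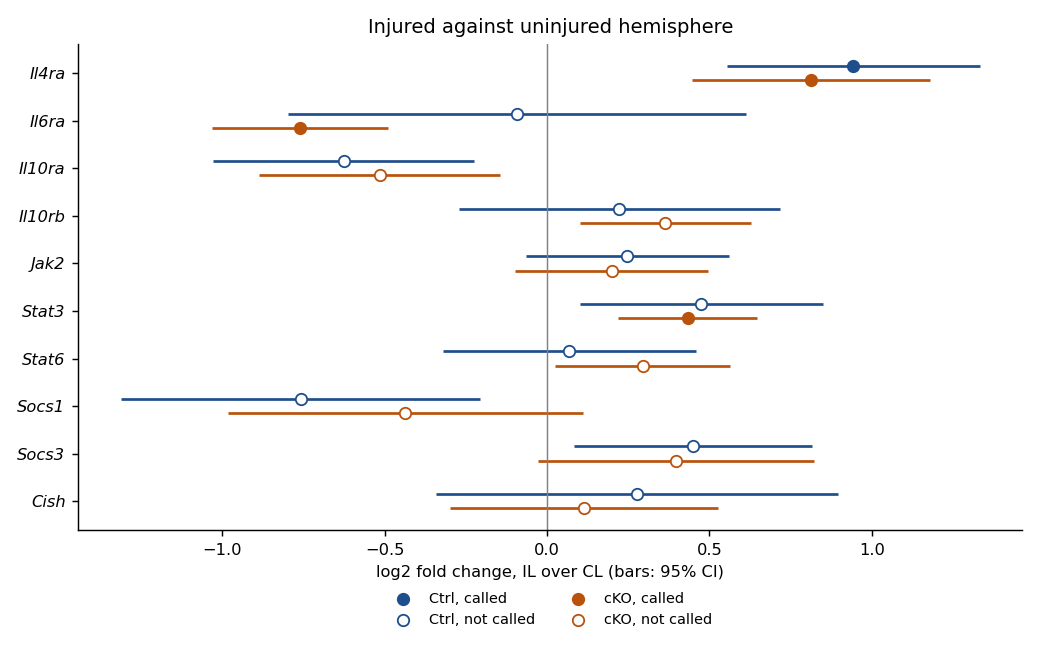
Log2 fold change of IL over CL (horizontal axis) with 95% confidence intervals for the 10 genes, without a term for the mouse; filled points were called. Il4ra lies to the right in Ctrl (0.94) and in cKO (0.81), and Il10ra (-0.63 and -0.52) and Socs1 (-0.76 and -0.44) lie to the left in both.

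Il4ra encodes the alpha chain that binds IL-4 and, with another chain, IL-13 (chr7:125552120-125579474, plus strand of GRCm38). Its CPM in mice 3541, 3545, 3546 and 3551 was 213, 191, 315 and 360 in Ctrl CL and 380, 381, 637 and 562 in Ctrl IL. In cKO it was 214, 253 and 300 in CL (mice 788, 791 and 3592) and 344, 398 and 541 in IL (mice 784, 791 and 3592). Every IL library was thus above every CL library of its genotype, and the group means ran upward from cKO CL over Ctrl CL and cKO IL to Ctrl IL, where the libraries of the CL groups overlapped each other and so did those of the IL groups. The rise was 1.92-fold in Ctrl (log2 0.94, SE 0.17, limma adjusted p = 0.0124) and 1.76-fold in cKO (log2 0.81, SE 0.16, limma adjusted p = 0.0106). With the mouse as a block the adjusted p of limma was 0.000777 in Ctrl and 0.00813 in cKO. Within each of the 6 mice with both hemispheres, IL exceeded CL by a ratio of 1.56 to 2.02. The call in Ctrl was lost where the deposited CPM were used without further scaling (log2 0.87, limma adjusted p = 0.0616) and kept under the other 15 of 16 alternatives, down to an adjusted p of 3.39e-05, and that in cKO was kept under all 14 (0.0012 to 0.0427). About 9.51% of the exon length of Il4ra is shared with an antisense transcript, Gm44876, which is not among the measured genes. Reads of that stretch could belong to either.

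Of the chains that pair with IL4RA, Il2rg was higher and Il13ra1 lower in IL in Ctrl with the mouse as a block. Il2rg, the common gamma chain that pairs with IL4RA in blood cells, rose in cKO from 28.0 ± 6.66 to 73.0 ± 13.9 CPM (log2 1.44, SE 0.20, limma adjusted p = 0.0034). In Ctrl it was at 35.0 ± 14.6 CPM in CL and 69.2 ± 11.5 in IL (log2 1.10, limma adjusted p = 0.0784, and 0.0015 with the mouse as a block). Il13ra1, which pairs with IL4RA in the other receptor type, was at 229 ± 17.6 CPM in Ctrl CL and 168 ± 28.7 in Ctrl IL and was called lower there only with the block (log2 -0.39, limma adjusted p = 0.2363 without the block and 0.0169 with it). In cKO Il13ra1 stood at 176 ± 8.47 and 143 ± 9.37 CPM (log2 -0.22, limma adjusted p = 0.195). The ligand Il4 was scarcely measured, at 0.240 ± 0.0601 CPM in Ctrl CL and at most 0.155 CPM in any library of the other groups, and it did not enter the tests; no row matched Il13.

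Stat6, the transcription factor downstream of IL-4 (chr10:127642986-127660957, plus strand), was not called in any comparison. It ranged from 144 to 258 CPM in Ctrl CL (median 178), from 143 to 262 in Ctrl IL (median 178), from 146 to 199 in cKO CL and from 184 to 214 in cKO IL, so all 4 groups overlapped. The log2 difference of IL from CL was 0.07 in Ctrl (95% CI -0.32 to 0.46) and 0.29 in cKO (0.03 to 0.56, limma adjusted p = 0.108). Of 13 genes known to respond to STAT6, 12 were tested in Ctrl, where 3 rose, Ch25h and Tgm2 among them, and 2 fell (Retnla and Il4i1), against 6.58% of all genes called. In cKO all 13 were tested, where 3 rose, again with Ch25h and Tgm2 among them, and Egr2 fell, against 22.4%. Tgm2, a transglutaminase, went from 108 ± 32.9 to 316 ± 44.9 CPM in Ctrl (log2 1.65, limma adjusted p = 0.0006) and from 150 ± 36.5 to 398 ± 102 in cKO (log2 1.49, limma adjusted p = 0.0046). Retnla, a marker of IL-4 treatment in macrophages, went down in Ctrl, from 1.54 ± 0.476 to 0.266 ± 0.191 CPM (log2 -0.95, limma adjusted p = 0.0123), and its log2 difference in cKO was -1.08 (limma adjusted p = 0.0803). The list's median log2 fold change was below that of all genes in both genotypes, at -0.42 in Ctrl and -0.27 in cKO. The block fit had 4 higher and 5 lower in Ctrl, against 20.5% of all genes called, and 3 higher and 2 lower in cKO, against 13.5%.

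Il6ra encodes the chain that binds IL-6 (chr3:89864059-89913196, minus strand). In cKO its CPM was 114, 116 and 153 in CL and 73.0, 63.5 and 73.8 in IL, so that every IL library was below every CL library. The fall was 0.590-fold of CL (log2 -0.76, SE 0.12, limma adjusted p = 0.00486; 0.00931 with the mouse as a block), and it was called under all 14 alternative settings tried (limma adjusted p 0.00344 to 0.0485). In Ctrl, mice 3541, 3545, 3546 and 3551 had 42.0, 95.2, 178 and 89.9 CPM in CL and 64.3, 69.8, 106 and 85.4 in IL. The Ctrl hemispheres overlapped widely, with a log2 difference of -0.09 (95% CI -0.80 to 0.61), and its sign turned to 0.20 at most when a library was left out. IL was below CL in 5 of the 6 mice with both hemispheres, and Ctrl mouse 3541 had a ratio of 1.53. The difference between the genotypes' responses was -0.66 on the log2 scale (SE 0.40, 95% CI -1.53 to 0.20, limma adjusted p = 1.0), so a fall particular to cKO was not shown. Il6st, the shared signalling chain of IL-6-type receptors, fell in cKO from 372 ± 39.3 to 228 ± 40.2 CPM (log2 -0.62, SE 0.11, limma adjusted p = 0.0084). In Ctrl, Il6st stood at 290 ± 147 and 206 ± 120 CPM (log2 -0.45, limma adjusted p = 0.557; 0.0195 with the mouse as a block). The ligand Il6 was at 6.69 ± 1.57 CPM in Ctrl CL, 5.59 ± 4.38 in Ctrl IL, 9.91 ± 1.11 in cKO CL and 10.6 ± 7.58 in cKO IL and was not called between hemispheres.

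Il10ra encodes the chain that binds IL-10 (chr9:45253837-45269149, minus strand). Its CPM in Ctrl was 987, 901, 988 and 882 in CL and 499, 576, 793 and 487 in IL. In cKO it was 976, 903 and 982 in CL and 620, 726 and 550 in IL. All 7 CL libraries lay between 882 and 988 CPM, above all 7 IL libraries, and the genotypes overlapped within each hemisphere. IL was lower within all 6 mice, at 0.505 to 0.805 of CL. The log2 difference was -0.63 in Ctrl (SE 0.18, limma adjusted p = 0.0715) and -0.52 in cKO (SE 0.16, limma adjusted p = 0.0536), short of the threshold in each. With the mouse as a block the call was made in Ctrl (limma adjusted p = 0.00878) but not in cKO (limma adjusted p = 0.16, 2 mice). It was also called in Ctrl with the CPM left unscaled (limma adjusted p = 0.0289) or without the IL library of mouse 3546 (0.0478), and in cKO under each of the 3 other scalings (0.0129 to 0.0409) or without the IL library of mouse 791 (0.0381). Over all alternatives the adjusted p was 0.00276 to 0.175 in Ctrl and 0.0129 to 0.16 in cKO.

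Il10rb encodes the second chain of the IL-10 receptor, which also serves IL-22 and type III interferons (chr16:91406164-91425834, plus strand). Its CPM was 266, 301, 260 and 225 in Ctrl CL and 342, 295, 298 and 235 in Ctrl IL. In cKO it was 176, 185 and 221 in CL and 215, 249 and 242 in IL. Where Il10ra was lower in IL in each of 6 mice, Il10rb was lower in 1 of 6, and its log2 difference was 0.22 in Ctrl (95% CI -0.27 to 0.72) and 0.36 in cKO (SE 0.11, limma adjusted p = 0.0543). That in cKO was called only when the CL library of mouse 3592 was left out (log2 0.45, limma adjusted p = 0.0271, with 0.0271 to 0.17 over 14 alternatives). Il10rb shares 14.9% of its exon length with the overlapping gene Gm21970, which is not among the measured genes. Reads of that stretch could come from either. The ligand Il10 rose in cKO from 2.19 ± 0.860 to 4.29 ± 0.713 CPM (log2 0.82, limma adjusted p = 0.0308; 0.0817 with the mouse as a block). In Ctrl it was at 2.60 ± 0.890 and 4.60 ± 0.409 CPM (log2 0.72, limma adjusted p = 0.111; 0.0382 with the mouse as a block).

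**Figure D3:**
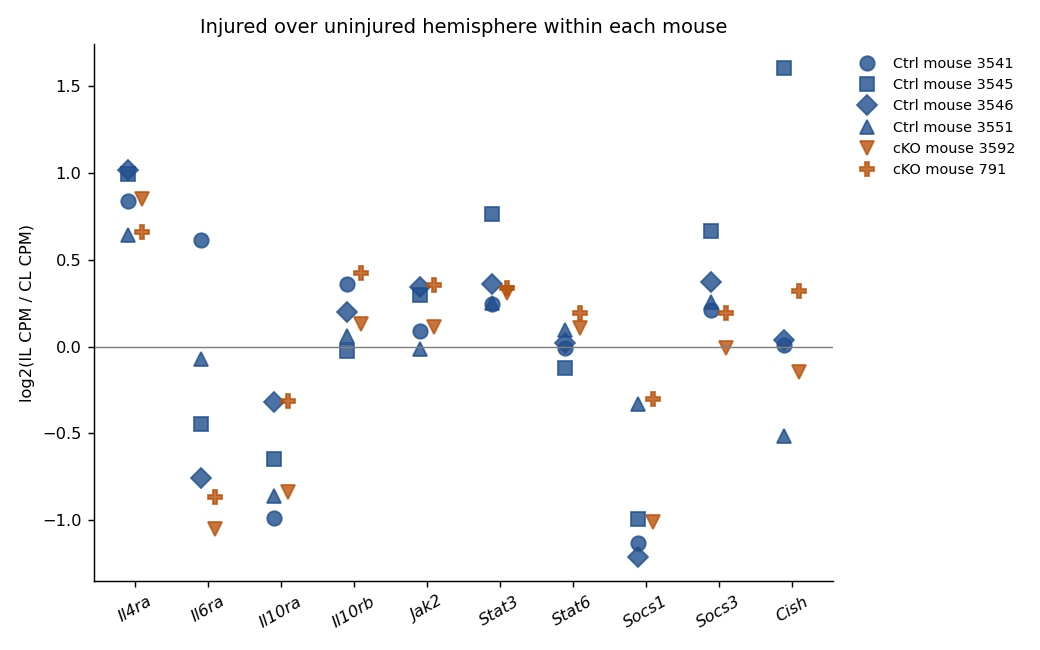
Log2 of the IL over the CL value (vertical axis, deposited CPM without further scaling) for the 10 genes in each of the 6 mice that gave both hemispheres; each symbol is a mouse. Il4ra and Stat3 lie above 0 and Il10ra and Socs1 below 0 in all 6 mice, and Il6ra lies below 0 in 5.

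Jak2, a kinase bound to the receptors of many cytokines (chr19:29251828-29313080, plus strand), was not called in either genotype without a term for the mouse. It ranged from 43.8 to 54.3 CPM in Ctrl CL (median 50.1), from 51.2 to 69.0 in Ctrl IL (median 52.7), from 50.7 to 53.8 in cKO CL and from 49.7 to 64.6 in cKO IL. The log2 difference of IL from CL was 0.25 in Ctrl (95% CI -0.06 to 0.56) and 0.20 in cKO (-0.10 to 0.50), and it was called only in Ctrl, in a fit of all 14 libraries that took the mouse as a random term (limma adjusted p = 0.0446, with 0.0446 to 0.61 over 16 alternatives; 6 of 10 genes and 23.0% of all genes were called in Ctrl by that fit). Of the other kinases, Jak1 and Tyk2, which serve the IL-4, IL-6 and IL-10 receptors, were not called in either genotype, with log2 differences of -0.07 and 0.12 in Ctrl and -0.02 and 0.22 in cKO. Jak3, the kinase bound to the common gamma chain, rose in Ctrl from 99.9 ± 19.4 to 149 ± 21.9 CPM (log2 0.65, limma adjusted p = 0.0354) and in cKO from 110 ± 14.9 to 178 ± 13.3 (log2 0.79, limma adjusted p = 0.0041).

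Stat3 encodes the factor downstream of IL-6 and IL-10 (chr11:100885098-100939540, minus strand). In cKO its CPM was 221, 239 and 238 in CL and 293, 301 and 295 in IL. These hemispheres did not overlap, and the rise was 1.35-fold (log2 0.43, SE 0.09, limma adjusted p = 0.0148). That call was lost with the mouse as a block (log2 0.43, limma adjusted p = 0.0755, 2 mice) and without the IL library of mouse 784 (0.0628) or of mouse 791 (0.0595), and over 14 alternatives the adjusted p was 0.0141 to 0.0755. In Ctrl the CPM was 163, 133, 250 and 239 in CL and 193, 226, 321 and 284 in IL. The Ctrl hemispheres overlapped, with mice 3546 and 3551 high on both sides, and IL was above CL within each mouse. The Ctrl log2 difference was 0.48 (SE 0.17, limma adjusted p = 0.133; 0.0203 with the mouse as a block, and 0.00269 to 0.355 over 16 alternatives). Over all 6 mice the IL to CL ratio was 1.18 to 1.70. The group means ran from Ctrl CL over cKO CL and Ctrl IL to cKO IL, and neighbours in that order overlapped.

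Beside Stat3 and Stat6, the list of kinases and STATs held 8 genes, of which Jak3 rose in Ctrl (6.58% of all genes called), and 4 rose in cKO (22.4%), Jak3, Stat2 and Stat4 among them. Stat2, a factor of the type I interferon response, went in cKO from 47.6 ± 11.3 to 83.0 ± 13.9 CPM (log2 0.88, limma adjusted p = 0.0171). In Ctrl its log2 difference was 0.53 (limma adjusted p = 0.1434; 0.0219 with the mouse as a block). With the mouse as a block 3 of the 8 were called higher in each genotype, against 20.5% of all genes called in Ctrl and 13.5% in cKO. The list's median was 0.21 in Ctrl and 0.59 in cKO.

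Of 13 genes known to respond to STAT3, 6 rose and none fell in Ctrl, against 6.58% of all genes called in either direction, and 8 rose and 1 fell in cKO, against 22.4%. In the block fit 8 were called higher and 3 lower in Ctrl, against 20.5% of all genes called, and 7 higher and 2 lower in cKO, against 13.5%. The list's median log2 fold change was 1.06 in Ctrl and 0.94 in cKO. Il1rn, the antagonist of the IL-1 receptor, went from 19.2 ± 10.3 to 124 ± 32.5 CPM in Ctrl (log2 2.78, limma adjusted p = 0.0027) and from 28.5 ± 12.3 to 249 ± 67.0 in cKO (log2 3.24, limma adjusted p = 0.0018). Timp1, an inhibitor of matrix metalloproteinases, rose by 1.93 on the log2 scale in each genotype from a low level (0.474 ± 0.274 CPM in Ctrl CL). Nfil3, a transcription repressor, rose by 1.59 in Ctrl and 1.40 in cKO, and Bcl3, a regulator of NF-κB, rose by 1.43 and 1.96. Lcn2, a siderophore-binding protein that neutrophils also store in granules, fell in cKO from 40.8 ± 26.9 to 11.5 ± 2.81 CPM (log2 -1.48, limma adjusted p = 0.0338). In Ctrl it was at 185 ± 159 CPM in CL and 24.1 ± 19.3 in IL (log2 -2.65, limma adjusted p = 0.1101; 0.0028 with the mouse as a block). The sums of neutrophil markers given above were lower in IL in both genotypes, with overlap in Ctrl, and their part in the values of Lcn2 was not tested.

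The 3 suppressors are given with stretches of their promoters. Within the 300 bases from 250 before to 50 after the RefSeq start (GRCm38.p6), found for 8 of the 10 genes and not for Il10ra and Il10rb, 3 letter patterns were searched on both strands. The GAS core, bound by most STAT dimers, was TTC and GAA with 3 free bases between them, the STAT6 type had 4 free bases there, and the core of the interferon-response element was GAAA, 2 free bases and GAAA, which can overlap itself. They occur in 8.30%, 6.95% and 3.44% of 32851 promoters of that length. The matches all lay in the 3 suppressor genes, whose stretches are shown because they separate Socs1 from the other suppressors. Capitals mark the matches, and each line is the gene's own strand.

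Socs3, chr11:117969492-117969540, minus strand: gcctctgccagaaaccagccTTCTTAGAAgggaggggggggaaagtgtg
Cish, chr9:107296654-107296683, plus strand: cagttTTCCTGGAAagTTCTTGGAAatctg
Socs1, chr16:10785584-10785639, minus strand: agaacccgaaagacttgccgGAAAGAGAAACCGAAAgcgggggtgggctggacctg

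Socs3 held a single GAS core at bases -154 to -146 from the RefSeq start. In the annotation the stretch shown lies inside the Socs3 gene and outside its exons. Cish held a pair of GAS cores, at bases 1 to 9 and 12 to 20, inside a 5′ untranslated exon of the annotation. Socs1 held overlapping interferon-response cores at bases -83 to -74 and -77 to -68 and neither STAT pattern. Il4ra, Il6ra, Stat3, Stat6 and Jak2 held none of the 3 patterns in this window. A match describes letters only and is not a measured binding site.

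Socs3, which blocks receptors of the IL-6 family (chr11:117966079-117970047, minus strand), had the highest CPM per kb of the 10 genes. In Ctrl its CPM was 1192, 963, 1226 and 1601 in CL and 1378, 1523, 1587 and 1915 in IL. In cKO it was 1124, 1562 and 1775 in CL and 1890, 1789 and 1763 in IL. IL was above CL in 5 of 6 mice, and cKO mouse 3592 was the exception with a ratio of 0.993. The hemispheres overlapped in both genotypes. The log2 difference was 0.45 in Ctrl (SE 0.16, limma adjusted p = 0.145; 0.0268 with the mouse as a block, and 0.0137 to 0.353 over 16 alternatives) and 0.40 in cKO (SE 0.19, limma adjusted p = 0.16).

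Socs1, which blocks JAK kinases downstream of interferon and IL-4 receptors (chr16:10782240-10785536, minus strand), was lower in IL. Its CPM was 15.3, 11.7, 14.8 and 8.34 in Ctrl CL and 7.0, 5.89, 6.38 and 6.64 in Ctrl IL, with no overlap. In cKO it was 9.94, 7.35 and 15.3 in CL and 7.58, 5.96 and 7.60 in IL, with overlap. IL was lower within all 6 mice, at 0.433 to 0.811 of CL. The log2 difference was -0.76 in Ctrl (SE 0.25, limma adjusted p = 0.106; 0.0251 with the mouse as a block) and -0.44 in cKO (95% CI -0.98 to 0.11, limma adjusted p = 0.223). The Ctrl value also passed with the CPM left unscaled (limma adjusted p = 0.0415) and without the CL library of mouse 3551 (0.0339), and over 16 alternatives the adjusted p was 0.00945 to 0.232.

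Cish, which blocks STAT5-activating receptors (chr9:107296026-107302784, plus strand), was the lowest of the 10 genes. It ranged from 1.60 to 3.11 CPM in Ctrl CL, from 1.70 to 4.86 in Ctrl IL, from 3.06 to 3.27 in cKO CL and from 2.83 to 3.82 in cKO IL. No comparison called it, and the log2 difference of IL from CL was 0.28 in Ctrl (95% CI -0.34 to 0.90) and 0.11 in cKO (-0.30 to 0.53). Both intervals include changes as large as that of Stat3.

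Of 15 further inhibitors, none was called in Ctrl, against 6.58% of all genes, and with the mouse as a block 1 rose and 2 fell, against 20.5%. In cKO 2 rose and 3 fell, against 22.4%, and with the block only 1 was called, Usp18, against 13.5%. Usp18, an interferon-induced brake on the type I interferon receptor, went in cKO from 23.8 ± 13.3 to 96.1 ± 39.9 CPM (log2 2.10, SE 0.46, limma adjusted p = 0.0152; 0.0007 with the block). In Ctrl its log2 difference was 1.19 (limma adjusted p = 0.1884; 0.002 with the block). Ptpn1, a phosphatase of JAK kinases, rose in cKO by 0.38 on the log2 scale. Pias1, Pias3 and the adaptor Sh2b3 fell in cKO by 0.43, 0.49 and 0.48 on the log2 scale. In Ctrl the log2 differences of these 4 genes were 0.21, -0.39, -0.21 and -0.45. The list's median stayed near 0 in both genotypes (-0.07 in Ctrl and -0.04 in cKO).

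Among the other cytokine receptors, 24 were tested in Ctrl, of which 4 rose and 1 fell, against 6.58% of all genes called, and 25 in cKO, of which 6 rose and 4 fell, against 22.4%. The receptors of GM-CSF and IL-3 rose in both: Csf2ra went from 93.7 ± 24.8 to 227 ± 31.2 CPM in Ctrl (log2 1.38, limma adjusted p = 0.0048) and from 141 ± 29.8 to 290 ± 26.8 in cKO (log2 1.14, limma adjusted p = 0.0026). Il3ra rose by 1.49 in Ctrl and 1.15 in cKO on the log2 scale. Csf2rb (0.94 in Ctrl and 0.87 in cKO) and Csf2rb2 (1.12 and 0.78) rose in both genotypes too, although the near-identical sequences of this gene pair can share reads. Ifngr1, the binding chain of the interferon-gamma receptor, fell from 926 ± 106 to 514 ± 71.0 CPM in Ctrl (log2 -0.78, limma adjusted p = 0.035) and from 758 ± 133 to 337 ± 51.4 in cKO (log2 -1.08, limma adjusted p = 0.0054). Lifr, the receptor of LIF, and Il7r fell in cKO by 0.75 and 0.72 on the log2 scale, and their log2 differences in Ctrl were -0.87 and -0.04. In the block fit 6 rose and 5 fell in Ctrl, against 20.5% of all genes called, and 6 rose and 3 fell in cKO, against 13.5%. The list's median was -0.04 in Ctrl and 0.08 in cKO.

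Of the ligands, 11 of 21 measured passed the filter in each genotype, and 2 were called in Ctrl (6.58% of all genes) and 5 in cKO (22.4%). Osm, a cytokine of the IL-6 family, rose from 161 ± 27.5 to 462 ± 77.6 CPM in Ctrl (log2 1.59, limma adjusted p = 0.0022) and from 253 ± 82.6 to 594 ± 141 in cKO (log2 1.33, limma adjusted p = 0.0099). Lif, of the same family, rose from 1.09 ± 0.341 to 4.95 ± 0.837 CPM in Ctrl and from 1.59 ± 0.592 to 7.71 ± 0.987 in cKO (log2 1.57 and 1.83). In cKO Il23a (log2 1.88), Csf3 (1.04) and Il10 were called higher too, with Csf3 at only 1.24 ± 0.348 CPM in IL. In Ctrl the log2 difference was 1.66 for Il23a and 0.46 for Csf3, neither of them called without the block. No ligand was called lower without the block. With the mouse as a block 5 rose and 2 fell in Ctrl, against 20.5% of all genes called, and 6 rose and none fell in cKO, against 13.5%. The list's median was 0.46 in Ctrl and 1.04 in cKO.

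**Figure D4:**
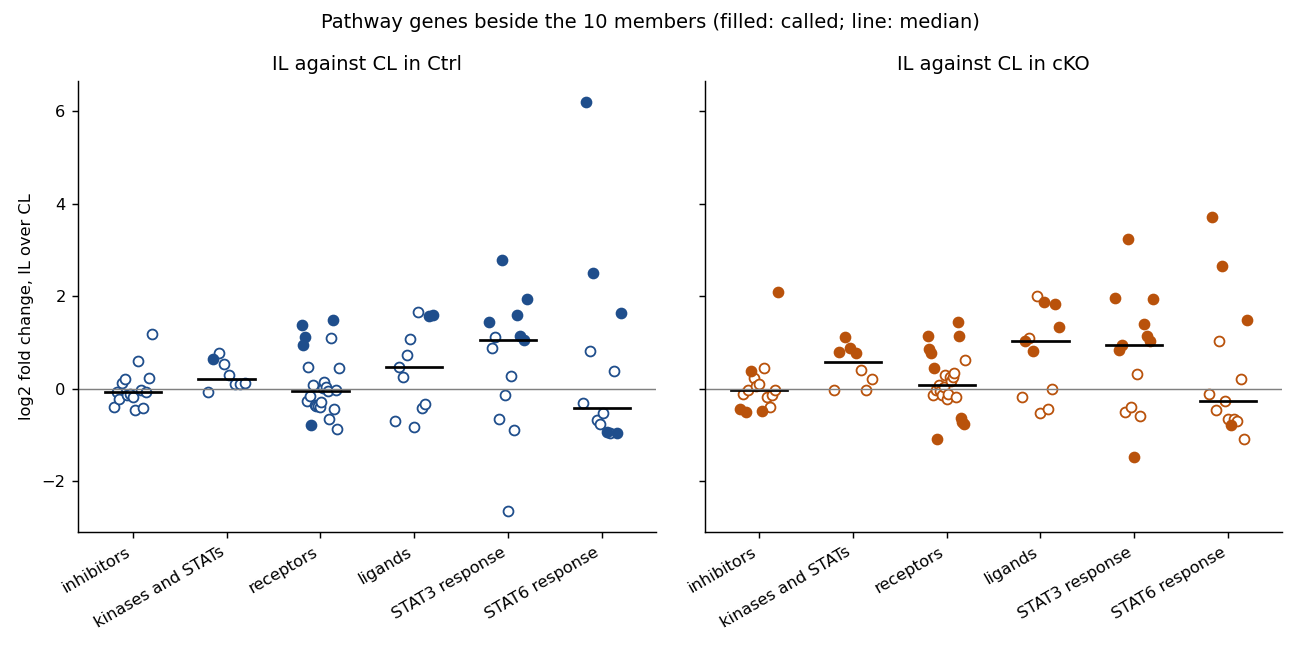
Log2 fold change of IL over CL (vertical axis) for each tested gene of 6 lists around the 10 genes, in Ctrl (left) and cKO (right); filled points were called and lines mark list medians. The STAT3-response list has medians of 1.06 and 0.94, and the STAT6-response list has medians of -0.42 and -0.27.

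The comparison of genotypes asks whether loss of Nhe1 altered these genes. None of the 10 genes was called between cKO and Ctrl in IL, against 0.662% of 16919 genes, or in CL, against 0.873% of 16603 genes, by limma with any of the 14 alternative settings tried in each hemisphere. At an unadjusted p under 0.05 there were 0 of 10 in IL, against 8.91% of all genes, and 1 of 10 in CL, against 9.81%. That gene was Il10rb, also the only one of the 10 whose groups did not overlap, against 9.99% of all genes in CL. All 3 cKO CL libraries (176 to 221 CPM) were below all 4 Ctrl CL libraries (225 to 301 CPM), with a log2 difference of -0.44 (SE 0.19, 95% CI -0.86 to -0.03, limma adjusted p = 0.468). Lists of markers of other cell types had medians below that of all genes in this contrast, apart from that of neurons. The 3 neuron markers had a median of 0.29 (none called, 1 at an unadjusted p under 0.05). Medians were -0.44 for infiltrating monocytes, -0.49 for T and NK cells, -0.16 for B cells and -0.16 for astrocytes. The lists with the lowest medians follow. The median log2 difference was -1.33 for 8 neutrophil markers (none called, 3 at an unadjusted p under 0.05), -1.04 for 4 markers of border-associated macrophages (none called, 3 under 0.05), -0.98 for 5 of oligodendrocytes (1 called, 4 under 0.05) and -0.72 for 4 of endothelium (none called, 2 under 0.05), against -0.05 for all genes. Summed CPM was 537 to 7524 in Ctrl CL and 571 to 1591 in cKO CL for the neutrophil markers, 109 to 193 and 41.0 to 142 for those of border-associated macrophages, 126 to 193 and 80.8 to 113 for those of oligodendrocytes, and 78.0 to 161 and 51.5 to 101 for those of endothelium. No marker of these lists was at 0 in all libraries of a group, and their part in the value of Il10rb was not tested. In IL the log2 difference of Il10rb was -0.29 (95% CI -0.72 to 0.14). Stat3 had the smallest unadjusted p in IL among the 10, with a log2 difference of 0.25 (95% CI -0.03 to 0.53, limma adjusted p = 0.624). For Il4ra it was -0.17 in IL (95% CI -0.56 to 0.21) and -0.05 in CL (-0.46 to 0.36). For Socs3 it was 0.20 in IL (95% CI -0.14 to 0.54) and 0.25 in CL (-0.23 to 0.72). For Il6ra it was 0.49 in CL, with an interval from -0.25 to 1.22 that leaves room for a difference larger than 2-fold. The intervals of the 10 genes do not show that the genotypes were alike.

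**Figure D5:**
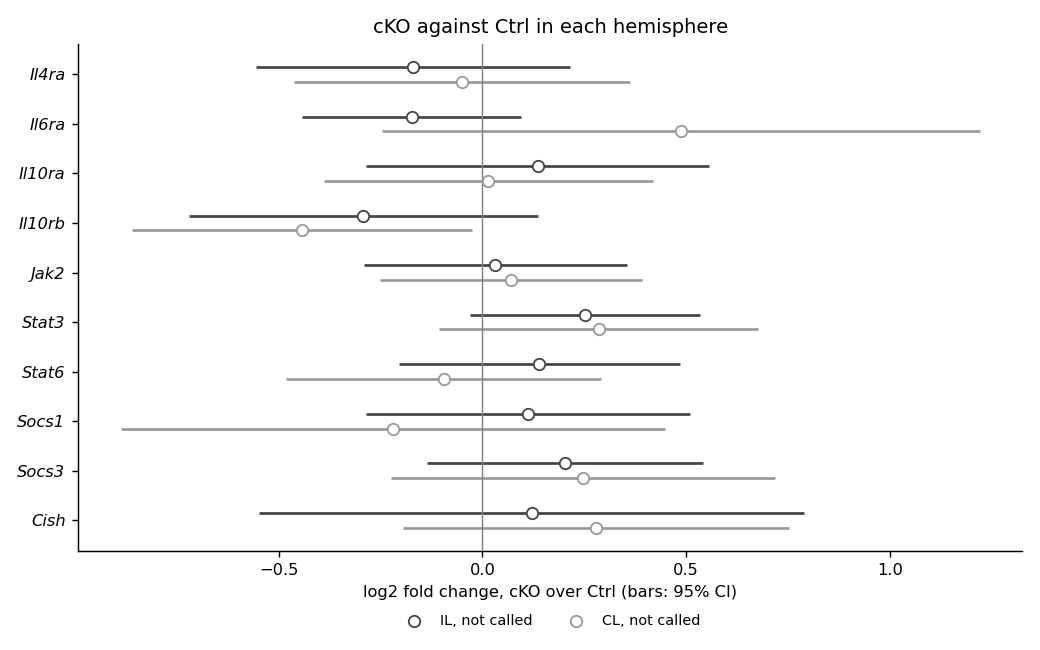
Log2 fold change of cKO over Ctrl (horizontal axis) with 95% confidence intervals for the 10 genes in IL and CL; open points were not called. Only the CL interval of Il10rb (-0.86 to -0.03) lies to one side of 0.

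In the 6 lists around the 10 genes, Ch25h of the STAT6-response list alone was called between genotypes in IL, against 0.662% of all genes, and none in CL, against 0.873%. The median log2 difference of the STAT6-response list was 0.53 in IL, with 6 of 12 at an unadjusted p under 0.05 against 8.91% of all genes, and 0.57 in CL, with 6 of 13 against 9.81%. The medians of the other 5 lists ran from -0.03 to 0.22 in IL and from -0.14 to 0.17 in CL, and those of all genes were 0.01 and -0.05. In IL, 2 of 15 inhibitors, 2 of 8 kinases and STATs and 3 of 25 receptors had an unadjusted p under 0.05. So did 3 of 12 ligands and 3 of 13 STAT3-response genes, against the same 8.91% of all genes. In CL the counts were 0 of 15, 1 of 8, 5 of 24, 3 of 10 and 1 of 13 in that order, against 9.81%. The genes that respond to dissociation had medians of 0.09 in IL and 0.32 in CL, with none of 9 called and 5 of 9 at an unadjusted p under 0.05 in each, and their part in the values of the STAT6-response list was not tested. Ch25h encodes the enzyme that makes 25-hydroxycholesterol, which is also induced by interferon. It was at 147 ± 30.2 CPM in Ctrl IL and 386 ± 32.3 in cKO IL (log2 1.41, SE 0.17, limma adjusted p = 0.0098), and at 29.0 ± 12.4 in Ctrl CL and 70.4 ± 38.4 in cKO CL (log2 1.25, limma adjusted p = 0.369).

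Whether the response to injury differed between genotypes was tested as an interaction over all 14 libraries. By limma 0 of 10 genes and 0 of 18476 genes were called, 481 genes (2.60%) had an unadjusted p under 0.05, none of them among the 10, and a fit that took the mouse as a random term called 3 genes. The log2 differences of the 10 genes ran from -0.66 for Il6ra to 0.33 for Socs1 (95% CI -0.46 to 1.12). For Il4ra it was -0.12 (95% CI -0.68 to 0.43), for Il10ra 0.12 (-0.40 to 0.64) and for Stat3 -0.04 (-0.49 to 0.42).

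Across the 14 libraries, Il4ra, Il6ra and Socs1 varied most of the 10 genes, with SDs of 0.52, 0.46 and 0.45 on the log2 scale. The genes whose log2 values ran closest to those of Il4ra, by the root mean square difference after centring, were Gas6 (0.13), Cyth1 (0.13) and Sbno2 (0.15). Closest to Il6ra were 2700081O15Rik (0.19), Gm49599 (0.21) and Unc79 (0.21), and closest to Socs1 were Lmo1 (0.18), Zfp707 (0.19) and Gadd45g (0.19). Since 27.8% to 30.6% of genes lay within each gene's own SD, these are nearest profiles among many.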

How the data were processed

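CD11b+ cells were isolated by magnetic sorting, and SMART-Seq v4 libraries were sequenced in pairs of reads. Per the labels, the authors aligned reads to mm10 with STAR in Partek Flow 8.0. The deposited values are CPM: each library sums to 1000000, and 79.0% to 83.5% of values under 100 reads were whole multiples of a single read (tolerance 0.03), too few for a count model. The deposited comparison tables, which hold the authors' fold changes and p-values, were not used. Gene names came from the reference annotation, which matched 33802 of 33939 genes, and lengths and positions from GENCODE M21 (GRCm38). Whether counting used strand is not given in the sources used here.

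Values were scaled by the trimmed mean of M-values (30% and 5% trimmed), genes under the CPM worth 10 reads were filtered, and log2(CPM + 1) was tested with limma 3.58.1 in R 4.3.3 (trend, empirical Bayes) within the 2 groups compared; fold changes on that scale understate those of low genes. The interaction used all 14 libraries. The limma fit of each comparison was tried on simulated libraries, and the other steps were not. Mouse numbers mark hemispheres of the same animal: the deviations of same-mouse libraries correlated at 0.182 to 0.608 in 6 pairs (median 0.413) and those of different mice at -0.536 to 0.503 in 19 pairs (median -0.215), so the ranges overlap, and centring within groups lowers the latter. The block fit held mice with both hemispheres. The 10 genes, the lists and the markers were chosen with earlier results of these data known. Named were all 10 genes, every called gene of a list with at most 5 in a comparison, otherwise the 3 with the largest change each way, and a few fixed partners and ligands; some genes under this rule, and the targeted gene, are not reported here. The 3 genes with the largest SD were given their 3 nearest profiles. Alternatives were pseudocounts of 0.5 and 0.1, no filter, no further scaling, median-ratio and upper-quartile scaling, a single fit of every library with a random term for the mouse, the block, and leaving out each library. Depth was inferred from the CPM of a single read, median 34.2 M (M, 1000000). Promoter sequences came from RefSeq (GRCm38.p6), matched by symbol.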

Additional observations from a re-analysis of the deposited data

Results flagged for a closer look

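In Ctrl mouse 3546 the IL library gave Jak2 a value of 68.97 CPM, while the other 3 Ctrl IL libraries lay between 51.2 and 53.8 CPM, which set that library apart from its group by Dixon's gap criterion. This library was also the shallowest of the 14, at 12.2 M reads. The criterion was applied to 20 groups (10 genes in the 2 groups of 4 libraries), and chance sets a sample apart in about 1 of 20 groups. The part of depth in this value was not tested.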

How the results depend on the processing

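With the mouse as a block, the genes called between hemispheres went from 1078 to 3358 in Ctrl (5 of the 10 described genes in place of 1) and from 3746 to 2261 in cKO, and the block changed no call of the 10 genes other than those given above. No paired analysis was possible for cKO against Ctrl because the genotypes share no mouse. A single fit with a random mouse term called 190 genes in IL and 290 in CL between genotypes, 4258 in Ctrl between hemispheres (6 of the 10) and 3 for the interaction. Without a filter the counts were 69, 91 and 562 for IL genotype, CL genotype and Ctrl hemispheres. Unscaled CPM called 2 of the 10 in Ctrl, and turned Stat6 there to -0.0044; upper-quartile scaling turned Il4ra between genotypes in CL to 0.029. Between hemispheres the split of all calls into higher and lower was 594 and 484 in Ctrl, 625 and 814 unscaled and 734 and 409 with upper-quartile scaling; in cKO it was 2150 and 1596, 1647 and 2146, and 1912 and 1919. In CL between genotypes, 77 and 68 became 91 and 57 with upper-quartile scaling.

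Leaving out each library in turn gave 46 to 284 genes called in IL (284 without Ctrl mouse 3546, and 46 to 66 without cKO mouse 784 or 791 or Ctrl mouse 3541, 3545 or 3551), 70 to 165 in CL (70 to 84 without cKO mouse 788 or 791 or Ctrl mouse 3545), 487 to 1413 between hemispheres in Ctrl (487 to 620 without CL of mouse 3545 or 3546 or IL of mouse 3541, 3545 or 3551), 1882 to 3538 in cKO (1882 to 2461 without CL of mouse 788 or IL of mouse 784, 791 or 3592) and 0 to 1 for the interaction (1 without either library of mouse 791). Of the 10 genes, 1 to 2 were called in Ctrl, with 2 without CL of mouse 3551 or IL of mouse 3546. These values, none of them called, crossed 0. Between genotypes in IL, Cish ran from -0.083 to 0.34, Jak2 from -0.095 to 0.11 and Il10ra from -0.0033 to 0.28. In CL, Socs1 ran from -0.45 to 0.016, Stat6 from -0.17 to 0.026, Il4ra from -0.16 to 0.061 and Il10ra from -0.058 to 0.092. Between hemispheres, Stat6 ran from -0.038 to 0.19 and Il6ra from -0.40 to 0.20 in Ctrl, and Cish from -0.0034 to 0.24 in cKO. For the interaction, Socs3 ran from -0.22 to 0.089, Cish from -0.36 to 0.069, Stat3 from -0.16 to 0.088, Jak2 from -0.17 to 0.039, Il4ra from -0.26 to 0.0080 and Il10ra from -0.019 to 0.26. In all, 737 of 790 alternative values of the 10 genes kept direction and side of the threshold, 18 newly passed it, 4 no longer did and 31 turned sign; the causes were not tested. With 3 or 4 libraries a group, small differences of Cish and Socs1 could not be resolved.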
